A study of Homo sapiens with 8 samples.

Results

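Keratinocytes that carried an induced hairpin against AREG and received EGF (Tet+EGF) were set against untreated control cells. The comparison rests on 5 of the 8 libraries of the study, chosen by the treatment their labels give: 2 of Tet+EGF and 3 of control. All cells were N/TERT-2G, an immortalised human keratinocyte line, and all, control cells included, held a short hairpin RNA against AREG whose expression tetracycline switches on. They were subconfluent and were collected at 60 h in serum-free medium with calcium chloride at 0.4 mM. Tet+EGF cells had tetracycline at 1 µg/ml together with EGF at 20 ng/ml, and both libraries were in batch 2. Tet cells had the same tetracycline without EGF, with 1 library in batch 2 and 2 in batch 1. Control cells had neither agent, with the library control 1 in batch 2 and controls 2 and 3 in batch 1. No library had EGF without tetracycline and none had tetracycline without the hairpin construct, so the hairpin, tetracycline and EGF cannot be told apart in this comparison. The labels say neither whether libraries of a group came from separate cultures nor whether the line is 1 clone, so the p-values cover only the spread of these libraries, which may be technical.

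Amphiregulin, the product of AREG, is a ligand of the EGF receptor that keratinocytes make for themselves. Ligand binding to the receptor drives ERK signalling, and in epidermis it favours growth and migration over differentiation. Cell division also needs the transcription factors FOXM1 and MYBL2, which act with the MuvB complex to switch on the genes of G2 and mitosis. EGF added from outside binds the same receptor as amphiregulin.

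Poly(A) RNA was sequenced at 1 library per lane, with per the labels 31000000 reads per lane on average. Values are RPKM, reads scaled by gene length and by the mapped reads of the library, so levels can be compared between genes. Of 21510 genes in the table, 12567 had an RPKM of 1 or more in at least 2 libraries and were tested. The other 8943 fell below that filter. Spacing of the low values put the depth of the 2 Tet+EGF libraries at 1.06 and 0.993 times that of control 1, that of control 3 at 0.853, and that of control 2 at 1.21 or 0.807. Second candidates were 0.532 for Tet+EGF 1, 1.99 for Tet+EGF 2 and 0.426 for control 3, so the steps leave the depth open by such factors. Across genes, which are not independent replicates, log2 values correlated at 0.996 between the Tet+EGF libraries, 0.992 between controls 2 and 3, and 0.955 and 0.953 between control 1 and controls 2 and 3. Control 1 therefore stood apart from the other controls, and the difference from control 1 alone, written below as the value within batch 2, is given beside results. It rests on 1 control library.

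The line's identity was checked against marker lists. All 14 keratinocyte markers were detected, with summed RPKM of 22563 and 22937 in the Tet+EGF libraries, 43262 to 47014 in Tet libraries and 25638 to 31021 in control libraries. None of 8 melanocyte markers passed the filter, and their sum was at most 2.28 RPKM in any library. Fibroblast markers passed in 8 of 19 cases, with sums of 57.8 and 60.7 RPKM in Tet+EGF libraries, 144.8 to 150.1 in Tet libraries and 41.0 to 59.4 in control libraries. MFAP5 alone was at 32.9 and 30.3 RPKM in Tet+EGF libraries, 104.9, 108.6 and 106.0 in Tet libraries, and 14.5, 30.6 and 32.4 in control libraries. It made up most of the sum in Tet libraries. Leukocyte markers passed in 3 of 15 cases, with sums of 109.4 and 109.9 RPKM in Tet+EGF libraries, 33.4 to 47.6 in Tet libraries and 48.0 to 59.5 in control libraries. LCP1 and CD68 made up most of that sum, and the common leukocyte marker PTPRC was listed at 0 in both Tet+EGF libraries and all controls. Endothelial markers passed in 2 of 9 cases, KDR and ENG, and summed to 8.12 and 8.36 RPKM in Tet+EGF libraries, 5.87 to 10.6 in Tet libraries and 9.43 to 10.4 in control libraries. In these bulk libraries, fewer cells of a kind and less RNA per cell cannot be told apart.

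Tet+EGF cells differed from control cells across much of the transcriptome despite the EGF. At a limma adjusted p under 0.05, 2013 genes (16.0%) were higher and 2038 (16.2%) were lower in Tet+EGF cells, and 495 and 621 of them differed by at least 2-fold. Genes of mitosis and DNA replication and of amino acid synthesis made up the clearest falls by list, and interferon-response, histone and wound genes the clearest rises. Both Tet+EGF libraries lay above all 3 controls for 4055 genes (32.3%) and below all 3 for 3496 genes (27.8%). Such a lack of overlap held for 1835 of the 2013 genes called higher and 1762 of the 2038 called lower. The median difference over all genes tested was -0.01 on the log2(RPKM + 0.5) scale, on which all fitted differences are given, and which understates those of low genes. Each called gene had the same sign within batch 2. Of the genes called, 84 rose while both Tet+EGF libraries lay below both batch 1 controls, and 136 fell while both lay above them. For such genes the direction rests on control 1 and on the batch term. Leaving out Tet+EGF 1 or Tet+EGF 2 left 768 higher and 847 lower, or 803 and 876, and leaving out Tet 1 gave 2949 and 3633. Without control 1, where the batch term rests on the Tet libraries, 2741 were higher and 2053 lower. For the same genes tested, Tet+EGF against Tet gave 1234 higher (9.82%) and 1150 lower (9.15%), and Tet against control gave 3294 higher (26.2%) and 3756 lower (29.9%). Tet against control shares its 3 control libraries with Tet+EGF against control.

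**Figure D1:**
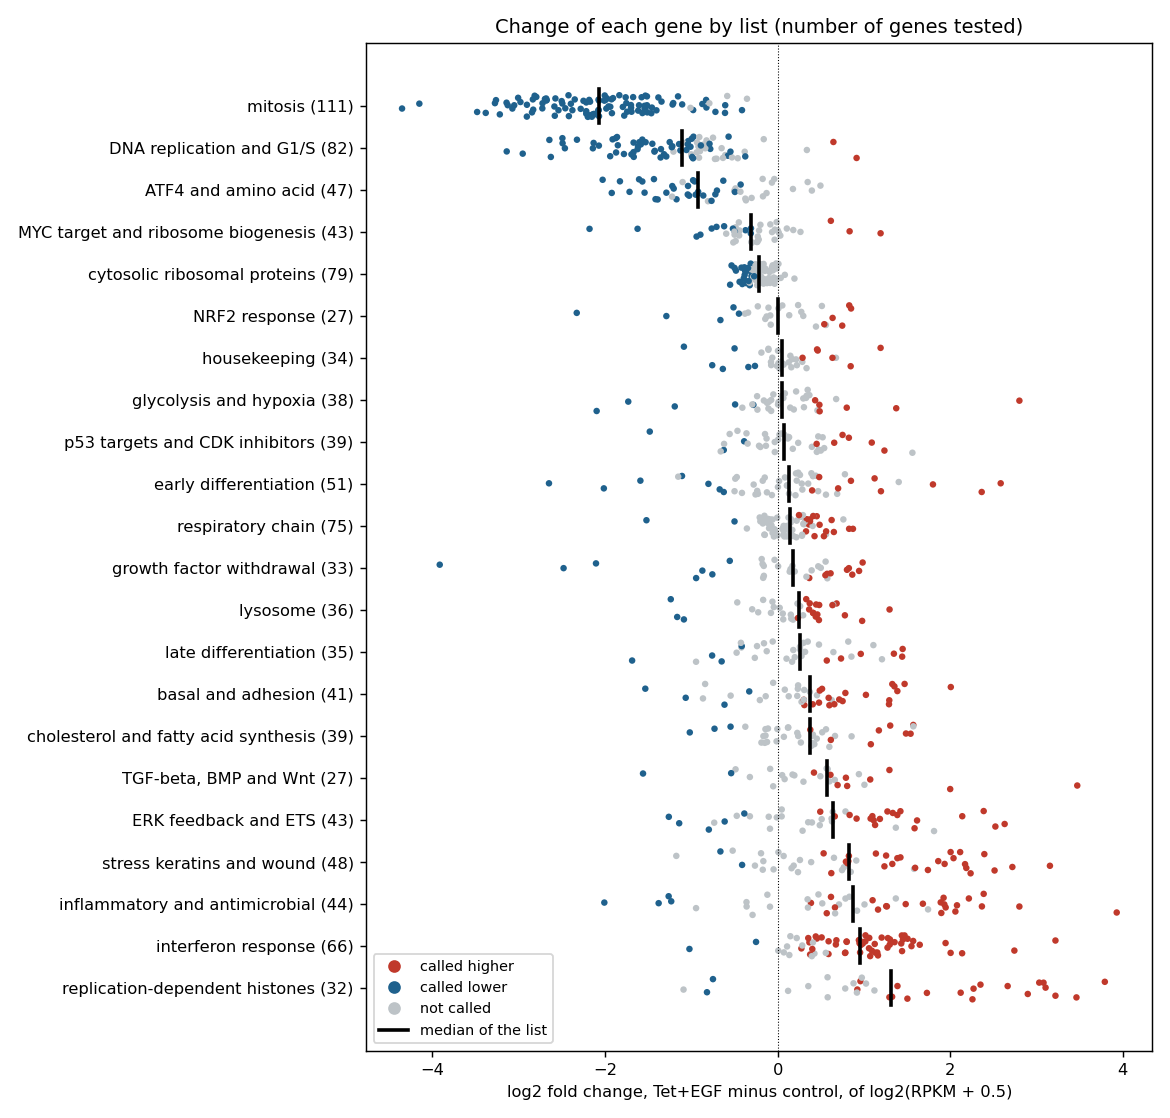
Fitted difference of each tested gene between Tet+EGF and control cells (x axis, log2 scale) for 22 gene lists (rows, with the number tested). Points are genes, red or blue where called higher or lower at a limma adjusted p under 0.05 and grey where not called, and a bar marks each median. Mitosis genes lie almost wholly left of 0, with a median of -2.07, and interferon-response genes mostly right of it, with a median of 0.96, against -0.01 for all genes tested.

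The targeted gene stayed low with EGF. AREG stood at 20.9 and 17.4 RPKM in Tet+EGF libraries, 6.63, 16.7 and 16.2 in Tet libraries, and 315.6, 202.1 and 188.8 in control libraries. All libraries with tetracycline lay far below all controls. The difference from control was -3.37 (SE 0.47, limma adjusted p = 0.00249) and -4.01 within batch 2. It was -2.07 without control 1. EGFR, the receptor that both amphiregulin and EGF bind, read 26.9 and 28.6 RPKM in Tet+EGF libraries, 36.4, 26.7 and 24.6 in Tet libraries, and 95.3, 48.3 and 50.7 in control libraries. It was lower in both Tet+EGF libraries than in any control, and control 1 was the highest. EGFR fell by 1.62 (SE 0.14, limma adjusted p = 0.00037).

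Of 16 tested genes for ERBB ligands, receptors, sheddases and regulators, 3 fell and 1 rose, against 16.2% and 16.0% of all genes tested. AREG, EGFR and ERBB2, the co-receptor that binds no ligand itself, were the 3. ERBB2 was at 23.4 and 24.8 RPKM in Tet+EGF libraries, 29.1, 28.4 and 28.4 in Tet libraries, and 32.1, 27.5 and 27.96 in control libraries, a difference of -0.35 (limma adjusted p = 0.0256). The rise was in RHBDF2, which encodes a partner of the sheddase ADAM17, with 24.9 and 24.8 RPKM in Tet+EGF libraries, 10.01, 17.4 and 17.2 in Tet libraries and 16.9, 19.3 and 20.99 in control libraries. Tet+EGF libraries lay above all others, while Tet and control libraries overlapped, and the difference from control was 0.71 (limma adjusted p = 0.0119).

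The other ligands did not pass the test. HBEGF, which encodes heparin-binding EGF-like growth factor, was at 16.1 and 19.9 RPKM in Tet+EGF libraries, 1.01, 5.64 and 8.20 in Tet libraries, and 12.8, 7.01 and 6.40 in control libraries (1.53, limma adjusted p = 0.171, and 0.47 within batch 2). EREG, for epiregulin, was at 20.5 and 18.6 RPKM in Tet+EGF libraries, 2.64, 12.8 and 12.8 in Tet libraries, and 30.8, 17.7 and 19.8 in control libraries (0.28, limma adjusted p = 0.772, and -0.64 within batch 2). Tet+EGF libraries lay within the range of the controls for EREG and above it for HBEGF. TGFA, for transforming growth factor alpha, differed by -0.33, EPGN, for epigen, by -0.79, and NRG1, for neuregulin, by -0.04. For each of these ligands both Tet+EGF libraries nevertheless lay below all controls, and within batch 2 the differences were -0.76, -0.97 and -0.54. NRG1 was at 5.21 and 5.05 RPKM in Tet+EGF libraries and 7.69, 8.42 and 8.205 in control libraries. Of the 16 genes, called or not, 7 lay below all controls in both Tet+EGF libraries and 4 above. Among all genes tested, 27.8% lay below all controls in this way and 32.3% above, so such a position was common. Among the remaining genes, ERBB3 differed by -0.16, the feedback inhibitor ERRFI1 by 0.51, the sheddases ADAM17 and ADAM10 by -0.42 and 0.00, the receptor regulators LRIG1 and LRIG3 by 0.30 and -0.23, and RHBDF1 by 0.20, and none passed. Without Tet 1, 10 of the 16 fell and 2 rose, against 3633 and 2949 of all 12567 genes tested. Without control 1 there were 2 lower and 7 higher, against 2053 and 2741 of all genes. Without either Tet+EGF library 0 rose by limma.

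FOXM1 remained at its low level with EGF. It read 2.02 and 1.72 RPKM in Tet+EGF libraries, 2.48, 3.85 and 3.999 in Tet libraries, and 23.9, 37.4 and 36.5 in control libraries. No library with tetracycline came near a control. The difference from control was -3.38 (SE 0.11, limma adjusted p = 2.53e-05) in Tet+EGF cells and -3.06 in Tet cells, and Tet+EGF against Tet gave -0.32 (limma adjusted p = 0.0851).

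Mitosis genes fell almost as a whole. Of 111 members, all of which were tested, 107 fell and 0 rose by limma, against 16.2% and 16.0% of all genes. With 1 library left out, 96 to 110 fell. All 107 were lower in both Tet+EGF libraries than in each control, as were 1762 of all 2038 genes called lower. Of the 107, 99 fell by at least 2-fold. The median member stood at 1.72 and 1.60 RPKM in Tet+EGF libraries, 1.99, 2.64 and 2.56 in Tet libraries, and 8.56, 12.9 and 13.7 in control libraries. Its fitted difference from control was -2.07 in Tet+EGF cells, -1.87 within batch 2 and -2.11 in Tet cells. Between Tet+EGF and Tet cells the median was -0.00, with 2 members higher and 3 lower, against 9.82% and 9.15% of all genes.

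A pair of promoters of this list is shown because CDC20 and PLK1 had the smallest p among its members with the element known as CHR, through which MuvB complexes bind mitotic genes. Each runs from 250 bases before to 50 after the start given by RefSeq on GRCh38.p14, on the gene's own strand. Capitals mark the CHR letters TTTGAA or TTCGAA and the CCAAT box, on either strand.
CDC20 (chr1:43358731-43359030, plus strand): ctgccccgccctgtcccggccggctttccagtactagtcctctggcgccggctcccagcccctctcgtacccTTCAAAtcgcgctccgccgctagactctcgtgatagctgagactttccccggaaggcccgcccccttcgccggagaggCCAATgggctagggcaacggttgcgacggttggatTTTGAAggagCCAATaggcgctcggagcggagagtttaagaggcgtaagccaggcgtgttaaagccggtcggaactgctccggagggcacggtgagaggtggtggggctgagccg
PLK1 (chr16:23678639-23678938, plus strand): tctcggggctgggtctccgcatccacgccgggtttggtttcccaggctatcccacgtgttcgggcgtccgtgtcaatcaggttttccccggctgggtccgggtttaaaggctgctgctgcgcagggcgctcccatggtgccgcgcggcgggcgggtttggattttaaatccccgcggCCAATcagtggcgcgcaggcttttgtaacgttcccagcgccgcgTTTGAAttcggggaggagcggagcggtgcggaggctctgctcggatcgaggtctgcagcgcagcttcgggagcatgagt
CHR letters were found in 65 of the 94 mitosis promoters matched (69.1%), in 11.1% of the 9644 matched promoters of genes tested and in 16.6% of all 27305 promoters of the table. CCAAT was found in 68.1% of mitosis promoters, against 36.9% of those of genes tested and 35.7% of all. A CHR match and a CCAAT match may share a base. A match is a run of letters and does not show binding.

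CDC20, the activator of the anaphase-promoting complex, was at 6.66 and 6.31 RPKM in Tet+EGF libraries, 6.91, 11.2 and 11.3 in Tet libraries, and 66.7, 109.1 and 102.3 in control libraries. PLK1, a kinase of mitotic entry and spindle assembly, was at 3.28 and 3.39 RPKM in Tet+EGF libraries, 4.34, 7.34 and 7.18 in Tet libraries, and 27.1, 51.3 and 47.9 in control libraries. Both were low in each of the 5 libraries with tetracycline. CDC20 fell by 3.26 (SE 0.09, limma adjusted p = 1.85e-05) and PLK1 by 2.91 (SE 0.10, limma adjusted p = 3.58e-05). MYBL2, the transcription factor that joins MuvB ahead of FOXM1, had the largest fall of the genes named by size: 0.996 and 0.715 RPKM in Tet+EGF libraries, 2.19, 2.42 and 2.69 in Tet libraries, and 21.1, 51.6 and 48.9 in control libraries (-4.35, limma adjusted p = 0.000199). Its control level was lowest in batch 2, and the difference within that batch was -4.002.

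Motor, kinase and chromosome genes followed the same order. KIF20A, a kinesin of cytokinesis, fell by 4.15, CDCA8 and AURKB, both of the chromosomal passenger complex, by 3.48 and 3.28, and CDCA3, a trigger of mitotic entry, by 3.22. MKI67, the proliferation marker, fell by 3.14 and TOP2A, the topoisomerase that untangles chromosomes, by 3.13. BIRC5, for the passenger protein survivin, fell by 3.07, and EPR1, which overlaps it on the other strand, by 3.15. Without a stated strand in the counting, reads of BIRC5 and EPR1 cannot be told apart. The 4 members that did not pass were chosen after their values were seen: KIF20B differed by -1.01 (limma adjusted p = 0.0609), SMC2 by -0.79 (0.0758), NCAPD3 by -0.58 (0.0993) and LIN37, a subunit of MuvB itself, by -0.35 (0.392).

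**Figure D2:**
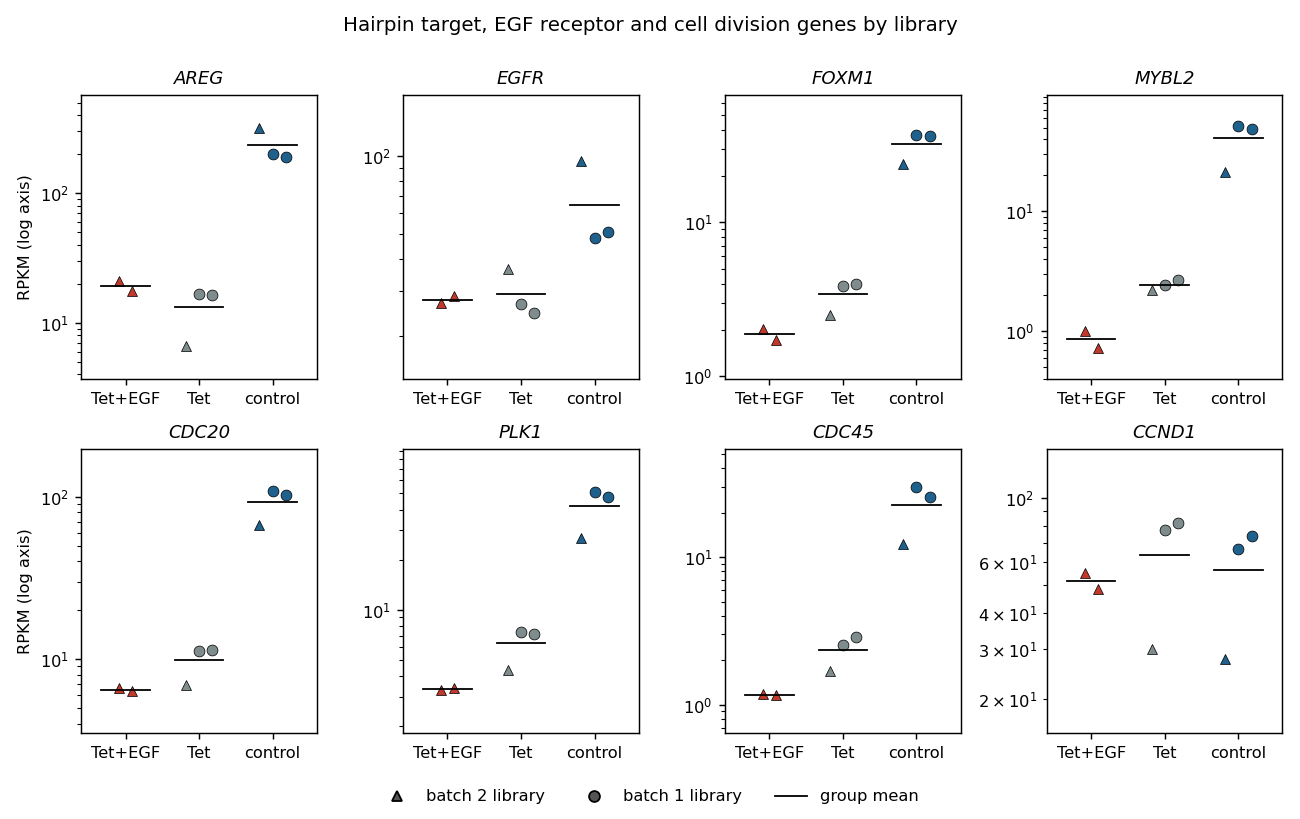
RPKM (log axis) of 8 genes in the libraries of Tet+EGF, Tet and control cells, with triangles for batch 2, circles for batch 1 and a line at each group mean. AREG, FOXM1, MYBL2, CDC20, PLK1 and CDC45 are low in all 5 libraries with tetracycline, EGFR is lowest there too, and CCND1 of the Tet+EGF libraries lies between control 1 and the batch 1 controls.

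DNA replication genes fell too, with a difference between batches in the controls. Of 82 members, all tested, 55 fell and 2 rose, against 16.2% and 16.0% of all genes. All 55 lay below each control, as did 1762 of all 2038 genes called lower. The median member was at 3.03 and 2.76 RPKM in Tet+EGF libraries, 2.74, 2.85 and 2.89 in Tet libraries, and 6.08, 13.1 and 13.3 in control libraries. Control 1 lay between the Tet+EGF libraries and the batch 1 controls. The median difference was -1.11 overall and -0.78 within batch 2, and Tet cells had -1.49. Between Tet+EGF and Tet cells 3 members were higher and 0 lower, against 9.82% and 9.15% of all genes. Fewer members fell against control when either Tet+EGF library was left out, as was so for all genes tested.

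Promoters of EXO1, a nuclease of mismatch repair, and CDC6, which loads the replicative helicase, are shown as members with letters of the E2F element, through which S-phase genes are switched on. CDC6 was chosen after its values were seen. Capitals mark TTCGCGC in EXO1 and TTGGCGC in CDC6, and the source and span are as for CDC20.
EXO1 (chr1:241847954-241848253, plus strand): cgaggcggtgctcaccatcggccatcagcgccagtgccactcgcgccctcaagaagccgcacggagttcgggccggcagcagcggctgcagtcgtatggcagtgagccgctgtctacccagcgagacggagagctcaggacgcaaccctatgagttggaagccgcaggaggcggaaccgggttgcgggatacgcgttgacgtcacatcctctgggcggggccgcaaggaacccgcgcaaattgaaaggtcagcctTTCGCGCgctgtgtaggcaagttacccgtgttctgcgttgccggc
CDC6 (chr17:40287629-40287928, plus strand): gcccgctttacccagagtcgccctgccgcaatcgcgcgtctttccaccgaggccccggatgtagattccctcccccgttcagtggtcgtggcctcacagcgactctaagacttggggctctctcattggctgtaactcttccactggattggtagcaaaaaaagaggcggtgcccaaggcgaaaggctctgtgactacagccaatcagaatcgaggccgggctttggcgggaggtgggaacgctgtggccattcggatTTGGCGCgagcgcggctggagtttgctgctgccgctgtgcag
Either of these words, or the related TTCCCGC, was found on 1 strand or the other in 45 of 67 matched promoters of the list (67.2%), in 18.3% of those of genes tested and in 11.2% of all. TTGGCGC can share bases with a CCAAT box read on the other strand.

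CDC45, part of the replicative helicase, had the smallest p of the list, at 1.18 and 1.16 RPKM in Tet+EGF libraries, 1.69, 2.54 and 2.87 in Tet libraries, and 12.3, 30.0 and 25.7 in control libraries (-3.14, limma adjusted p = 0.000149). EXO1 was at 0.284 and 0.247 RPKM in Tet+EGF libraries, 0.294, 0.835 and 0.652 in Tet libraries, and 2.25, 4.48 and 4.41 in control libraries (-1.91, limma adjusted p = 0.00035). In both genes all libraries with tetracycline lay below all controls. CDC6 fell by 2.63, ORC6L, of the origin recognition complex, by 1.67, and RNASEH2A, of ribonuclease H2, by 1.45. Replication genes with a lower control 1, chosen after their values were seen, gave smaller differences. PCNA, the sliding clamp, was at 21.5 and 18.96 RPKM in Tet+EGF libraries, 24.9, 24.2 and 18.6 in Tet libraries, and 34.0, 80.5 and 79.3 in control libraries (-1.22, limma adjusted p = 0.0426, and -0.74 within batch 2), and leaving out any library but control 1 or Tet 1 ended its call. MCM6, of the helicase ring, was at 5.73 and 4.80 RPKM in Tet+EGF libraries, 4.15, 4.98 and 4.58 in Tet libraries, and 4.93, 27.7 and 25.7 in control libraries (-0.63, limma adjusted p = 0.385). Within batch 2 the difference of MCM6 was 0.08.

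The 2 members that rose were D-type cyclins, which act at the start of G1. CCND1 was at 54.8 and 48.5 RPKM in Tet+EGF libraries, 29.9, 77.6 and 82.4 in Tet libraries, and 27.5, 66.9 and 74.1 in control libraries. It was called higher (0.92, limma adjusted p = 0.00102), yet both Tet+EGF libraries lay above control 1 and below controls 2 and 3, and without a batch term the difference was 0.00. CCND3 was at 70.6 and 72.0 RPKM in Tet+EGF libraries, 59.5, 72.6 and 72.2 in Tet libraries, and 46.9, 53.7 and 49.6 in control libraries (0.65, limma adjusted p = 0.00202), with no overlap.

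Earlier work on these data, on Tet against control, singled out an 8-base word in 3′ UTRs, CCAAGTCA, which FOXM1 and AREG both hold. The sources used here do not give the hairpin's own sequence. The sites are shown in 28 bases each on GRCh38 with GENCODE v29, on the strand of the gene, with the word in capitals.
FOXM1 (chr12:2858008-2858035, minus strand, 3′ UTR): ccccgtgtttCCAAGTCAgctttcctgc
AREG (chr4:74454770-74454797, plus strand, 3′ UTR in transcript AREG-201 and before it in AREG-202): ggagtcactgCCAAGTCAtagccataaa
That comparison shares the hairpin, tetracycline and the 3 control libraries with the one made here. Falls of genes with the word are therefore not independent of how it was chosen, and the counts below, also by length, do not test it. They are a description, with AREG left out and FOXM1 kept. The 353 genes with the word in a 3′ UTR had a median difference of -0.32 between Tet+EGF and control cells. Of them, 141 (39.9%) fell, against 16.2% of all genes tested. Another 1495 genes with only 7 bases of it had a median of -0.15, with 416 lower (27.8%). The 9404 genes with neither had a median of 0.03, with 1318 lower (14.02%). Genes with the word had longer 3′ UTRs, at a median of 3352 bases, against 1172.5 for those with neither. Among genes with 2000 to 4000 bases, 44 of 109 with the word fell (40.4%), and 242 of 2006 with neither (12.1%). Of the mitosis genes, 94 of 106 searched had neither word, and 91 of these fell, with a median of -2.04.

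Histone transcripts were higher, in contrast to the division genes. Of 57 genes for replication-dependent histones, 32 passed the filter, of which 19 rose and 2 fell, against 16.0% and 16.2% of all genes. Members low in controls could pass through the libraries with tetracycline alone. How many did was not counted, so the filter may have raised the share of rises. Since histone messages lack a poly(A) tail in S phase and these libraries were made from poly(A) RNA, the values describe the polyadenylated share. The median member was at 4.09 and 5.19 RPKM in Tet+EGF libraries, 4.70, 4.42 and 6.36 in Tet libraries, and 1.39, 1.07 and 1.45 in control libraries, a fitted difference of 1.31 in Tet+EGF cells and 1.65 in Tet cells. Tet+EGF against Tet gave 0 higher and 3 lower, against 9.82% and 9.15% of all genes.

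The promoter of HIST1H2BK, for an H2B histone, is shown because the gene had the smallest p of the list. RefSeq lists it as H2BC12. Capitals mark CCAAT or its reverse complement ATTGG, of which it holds 6.
HIST1H2BK (chr6:27146809-27147108, minus strand): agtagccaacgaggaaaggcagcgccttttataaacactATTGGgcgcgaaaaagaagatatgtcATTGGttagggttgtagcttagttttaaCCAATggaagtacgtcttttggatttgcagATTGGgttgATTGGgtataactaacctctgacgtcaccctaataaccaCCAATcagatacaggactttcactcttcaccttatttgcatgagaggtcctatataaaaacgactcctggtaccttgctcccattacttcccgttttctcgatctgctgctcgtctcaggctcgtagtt
CCAAT on either strand was found in 22 of 28 matched histone promoters (78.6%), against 36.9% of those of genes tested and 35.7% of all.

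HIST1H2BK was at 115.9 and 115.8 RPKM in Tet+EGF libraries, 103.6, 132.4 and 138.3 in Tet libraries, and 14.2, 17.3 and 16.4 in control libraries. Groups with and without tetracycline were far apart, and the Tet+EGF libraries lay within the range of the Tet libraries. Its difference from control was 3.03 (SE 0.08, limma adjusted p = 1.85e-05). Further rises were 3.79 for HIST2H2BE, 3.46 for the linker histone HIST1H1C, 3.22 for HIST1H2BC, 3.08 for HIST1H2BD and 2.90 for HIST1H2AC. HIST2H2AA3 and HIST2H2AA4 rose by 2.67 and 2.63. They are near-identical copies, so their reads may be split between them. HIST1H4J and HIST1H4K, which also share sequence, were the 2 that fell (-0.82 and -0.75, limma adjusted p = 0.0466 and 0.0266), and both overlapped the controls. HIST2H4A, chosen after its values were seen, showed how far control 1 could depart: 69.5 and 81.6 RPKM in Tet+EGF libraries, 88.3, 42.0 and 41.7 in Tet libraries, and 64.3, 7.30 and 7.56 in control libraries (0.88, limma adjusted p = 0.195).

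Interferon-response genes rose as a group. Of 69 genes 66 passed the filter, of which 53 rose and 2 fell, against 16.0% and 16.2% of all genes. Each of the 53 was above all controls, as were 1835 of all 2013 genes called higher. The median member was at 34.6 and 35.5 RPKM in Tet+EGF libraries, 29.7, 22.0 and 23.7 in Tet libraries, and 18.5, 15.8 and 16.2 in control libraries. The median difference from control was 0.96 in Tet+EGF cells, 1.06 within batch 2 and 0.59 in Tet cells. Between Tet+EGF and Tet cells 13 members were higher and 0 lower, against 9.82% and 9.15% of all genes. Fewer members rose against control when either Tet+EGF library was left out, as was so for all genes tested.

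Promoters of IFI6, an interferon-induced mitochondrial protein, and IFIH1, the RNA sensor MDA5, are shown as the 2 members with the smallest p that hold the letters of an interferon-stimulated response element. Capitals mark GAAA, 2 bases of any kind and GAAA again, on either strand, in IFIH1 with 2 overlapping matches in the first run.
IFI6 (chr1:27672143-27672442, minus strand): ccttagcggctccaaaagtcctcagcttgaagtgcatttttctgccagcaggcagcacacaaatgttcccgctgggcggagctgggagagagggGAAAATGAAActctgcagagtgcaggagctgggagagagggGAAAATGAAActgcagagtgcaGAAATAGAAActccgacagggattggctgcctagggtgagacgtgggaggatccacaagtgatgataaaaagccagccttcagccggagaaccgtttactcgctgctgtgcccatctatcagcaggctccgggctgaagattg
IFIH1 (chr2:162318635-162318934, minus strand): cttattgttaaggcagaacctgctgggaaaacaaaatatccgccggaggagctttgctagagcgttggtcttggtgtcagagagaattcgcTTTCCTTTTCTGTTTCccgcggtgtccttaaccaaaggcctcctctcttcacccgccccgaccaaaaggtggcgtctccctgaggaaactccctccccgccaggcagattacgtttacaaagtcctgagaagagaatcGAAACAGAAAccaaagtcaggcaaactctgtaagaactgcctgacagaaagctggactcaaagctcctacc
The letters were found in 32 of 53 matched promoters of the list (60.4%), in 2.85% of those of genes tested and in 3.65% of all.

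IFI6 was at 754.8 and 799.8 RPKM in Tet+EGF libraries, 843.8, 619.2 and 638.6 in Tet libraries, and 313.2, 257.0 and 220.2 in control libraries (1.3, limma adjusted p = 0.000252). DDX58, for the RNA sensor RIG-I, was at 25.7 and 25.4 RPKM in Tet+EGF libraries, 13.02, 13.97 and 14.3 in Tet libraries, and 8.28, 8.89 and 8.98 in control libraries. IFI6 was high in all libraries with tetracycline, whereas for DDX58 the Tet libraries lay between the other groups. DDX58 rose by 1.57 against control (SE 0.08, limma adjusted p = 0.000111) and by 0.94 against Tet (limma adjusted p = 0.000627). IFIH1 rose by 1.06 against control. CXCL11, a chemokine for T cells, was at 8.42 and 6.80 RPKM in Tet+EGF libraries, 0.685, 0.332 and 0.466 in Tet libraries, and 0.337, 0.158 and 0.246 in control libraries, a difference of 3.22 from control and 2.82 from Tet (limma adjusted p = 0.000134 and 0.000211). The Tet+EGF libraries lay far above both other groups. CXCL11 reached an RPKM of 1 only in them, so it was tested only because it was high in that group.

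Members chosen after their values were seen included IFIT3, an antiviral effector, at 107.9 and 110.0 RPKM in Tet+EGF libraries, 101.8, 54.4 and 54.8 in Tet libraries, and 18.6, 22.3 and 21.97 in control libraries (2.14, limma adjusted p = 0.00194). ISG15, a ubiquitin-like modifier, rose by 1.44, IFIT1 by 1.43 and MX1 by 1.02. IRF9, a transcription factor of the interferon response, differed by 0.43 and did not pass (limma adjusted p = 0.102). OAS3, a sensor of double-stranded RNA, went the other way: 24.8 and 24.4 RPKM in Tet+EGF libraries, 16.6, 12.1 and 11.7 in Tet libraries, and 42.6, 51.2 and 51.04 in control libraries (-1.02, limma adjusted p = 0.007). TAP2, a peptide transporter of antigen presentation, also fell, by 0.25.

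**Figure D3:**
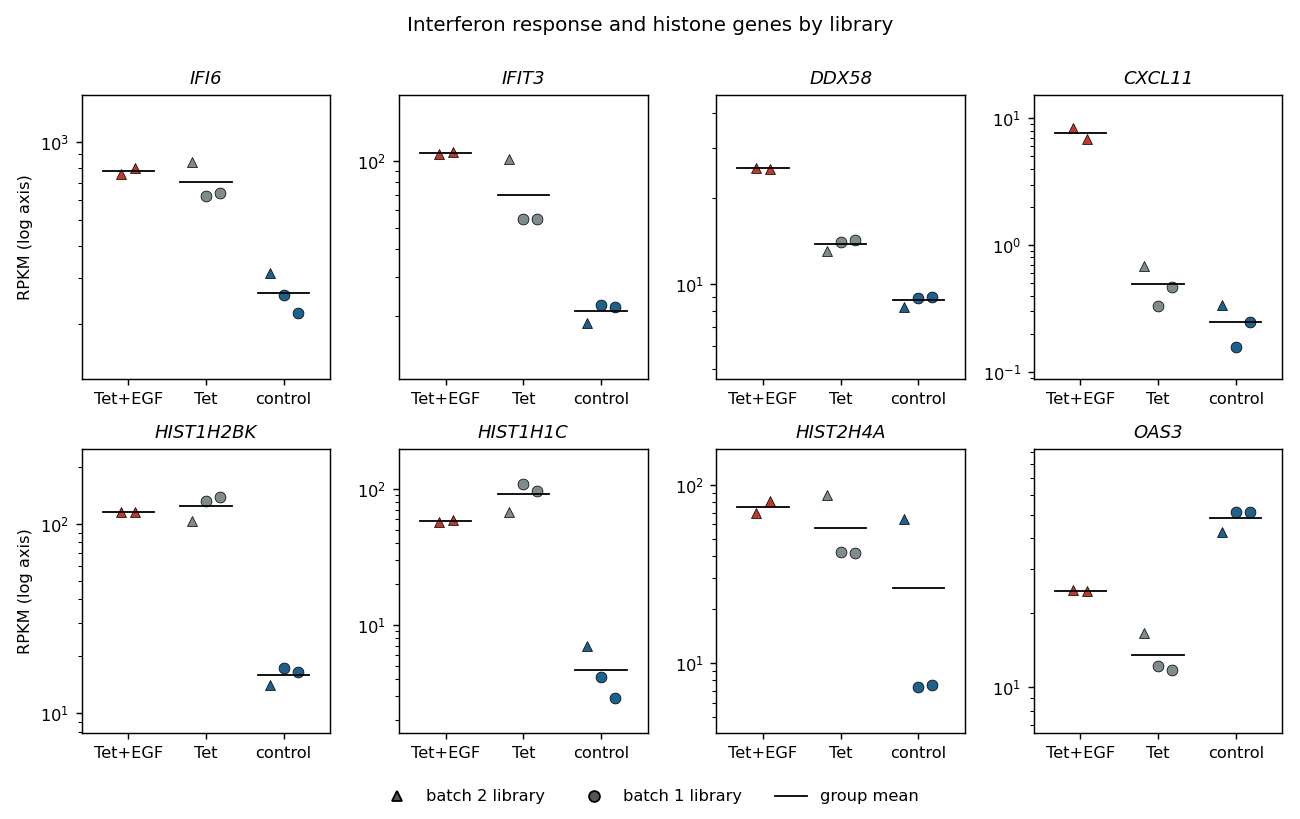
RPKM (log axis) of 5 interferon-response genes, OAS3 among them, and 3 histone genes in Tet+EGF, Tet and control libraries, with triangles for batch 2, circles for batch 1 and a line at each group mean. IFI6, IFIT3, HIST1H2BK and HIST1H1C are high in all libraries with tetracycline, CXCL11 is high in the 2 Tet+EGF libraries, OAS3 is lower with tetracycline, and HIST2H4A of control 1 lies with the treated libraries.

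Inflammatory and antimicrobial genes were mixed with a balance to rises. Of 66 genes 44 passed the filter, of which 22 rose and 4 fell, against 16.0% and 16.2% of all genes, with a median of 0.88. Fewer rose when either Tet+EGF library was left out, as was so for all genes tested. SAA1, an acute-phase protein, was at 138.3 and 116.0 RPKM in Tet+EGF libraries, 219.6, 194.2 and 180.8 in Tet libraries, and 36.1, 25.0 and 24.5 in control libraries (1.90, limma adjusted p = 0.000216). RNASE7, an antimicrobial ribonuclease of skin, was at 38.3 and 39.6 RPKM in Tet+EGF libraries, 6.35, 8.45 and 9.03 in Tet libraries, and 11.7, 11.4 and 9.45 in control libraries (1.89, limma adjusted p = 0.000603). SAA1 was highest in the Tet libraries, and RNASE7 in the Tet+EGF libraries. TNFSF10, the death ligand TRAIL, rose by 1.1 and SAA2, a close relative of SAA1, by 2.08.

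CCL20, a chemokine for dendritic and T cells, had the largest rise of the genes named by size, at 16.8 and 12.6 RPKM in Tet+EGF libraries, 0.532, 11.7 and 13.3 in Tet libraries, and 1.54, 2.78 and 2.06 in control libraries. Both Tet+EGF libraries were above all controls, but the 3 Tet libraries spread widely by batch. The difference of 3.93 (SE 0.76, limma adjusted p = 0.00917) became 2.88 within batch 2. It was called in 19 of 23 alternatives, with adjusted p from 2.43e-05 to 0.104. ICAM1, an adhesion molecule for leukocytes, and TNF, both chosen after their values were seen, rose by 2.80 and 2.06. The falls were in IL24, S100A8, CFD and LCN2. IL24, a cytokine of the interleukin-10 family, was at 3.97 and 2.73 RPKM in Tet+EGF libraries, 0.1, 0.291 and 0.599 in Tet libraries, and 10.1, 46.3 and 52.3 in control libraries (-2.01, limma adjusted p = 0.0139). S100A8, a calcium-binding alarmin, fell by 1.23.

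Genes that ERK signalling switches on, many of them feedback inhibitors, were examined next. Against control, EGF cannot be told apart from the hairpin and tetracycline in them either. Of 50 genes 43 passed, of which 19 rose and 5 fell, against 16.0% and 16.2% of all genes, with a median of 0.64. Only 13 of the 19 were above all controls, against 1835 of all 2013 genes called higher. The median member was at 23.5 and 22.9 RPKM in Tet+EGF libraries, 7.57, 19.6 and 20.2 in Tet libraries, and 23.7, 26.7 and 28.4 in control libraries. By this level both Tet+EGF libraries lay below all controls, although the median fitted difference was 0.64. Without a batch term 4 members rose, against 1550 of all 12567 genes tested, and without control 1 there were 32, against 2741. Fewer rose when either Tet+EGF library was left out, as was so for all genes. Against Tet cells 25 members were higher and 6 lower, with a median of 1.18, against 9.82% and 9.15% of all genes.

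DUSP6, the phosphatase that switches ERK off, was chosen after its values were seen. It was at 89.8 and 74.4 RPKM in Tet+EGF libraries, 0.971, 11.4 and 12.5 in Tet libraries, and 18.6, 54.9 and 52.3 in control libraries. Tet+EGF libraries were the highest and Tet libraries the lowest, with no overlap among the 3 groups. The difference was 2.63 from control (limma adjusted p = 0.00314) and 5.28 from Tet (limma adjusted p = 0.000346). SPRY4, another feedback inhibitor, chosen likewise, was at 46.6 and 43.1 RPKM in Tet+EGF libraries, 2.69, 17.6 and 20.2 in Tet libraries, and 10.3, 26.2 and 23.8 in control libraries (2.52, limma adjusted p = 0.0022). Without a batch term DUSP6 was not called, at 1.1, nor was it in 3 of 23 alternatives in all. DUSP10, a phosphatase of JNK and p38, had the smallest p of the list and rose by 1.27. MCL1, which protects cells from death, rose by 0.66. ETS2, FOS, RGS2 and ELK3 fell, by 1.26, 1.14, 0.61 and 0.39. ETV4 and ETV5, ETS factors chosen after their values were seen, differed from control by -0.10 and 0.40 (limma adjusted p = 0.76 and 0.339) and from Tet by 2.68 and 3.14 (limma adjusted p = 0.00056 and 0.000806).

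Wound and stress genes rose against control, and more of them were higher than lower against Tet. Of 55 genes 48 passed, of which 26 rose and 2 fell, against 16.0% and 16.2% of all genes. The median member was at 79.0 and 74.6 RPKM in Tet+EGF libraries, 21.1, 39.8 and 42.1 in Tet libraries, and 37.6, 54.6 and 57.7 in control libraries. Its difference from control was 0.82 in Tet+EGF cells and 0.16 in Tet cells. Against Tet, 25 members were higher and 8 lower, against 9.82% and 9.15% of all genes. Without a batch term 11 rose against control, as did 1550 of all 12567 genes tested.

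PLAU, the urokinase plasminogen activator, was at 260.1 and 265.5 RPKM in Tet+EGF libraries, 158.9, 232.0 and 231.6 in Tet libraries, and 58.2, 81.8 and 80.6 in control libraries (2.19, SE 0.07, limma adjusted p = 2.53e-05). PLAT, the tissue plasminogen activator, was at 31.0 and 27.5 RPKM in Tet+EGF libraries, 5.35, 15.01 and 16.1 in Tet libraries, and 5.62, 13.1 and 12.2 in control libraries (2.40, limma adjusted p = 0.000119). PLAU was above the controls in all libraries with tetracycline, and PLAT in the Tet+EGF libraries and, by a little, Tet 2 and Tet 3. AKAP12, a scaffold of protein kinases, was at 33.2 and 33.7 RPKM in Tet+EGF libraries, 0.347, 0.962 and 1.11 in Tet libraries, and 2.57, 9.93 and 10.3 in control libraries. It was highest with EGF and lowest in Tet libraries, and differed by 3.16 from control and by 5.64 from Tet (limma adjusted p = 0.000276 and 4.7e-05). PTHLH, for parathyroid hormone-related protein, rose by 2.17. TIMP3, an inhibitor of metalloproteinases, and SERPINE2, an inhibitor of urokinase, fell by 0.66 and 0.41.

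Several wound genes were called on control 1. F3, for tissue factor, chosen after its values were seen, was at 211.3 and 164.1 RPKM in Tet+EGF libraries, 18.2, 232.2 and 234.2 in Tet libraries, and 33.5, 233.2 and 255.0 in control libraries. It was called higher (2.72, limma adjusted p = 0.00037) while both Tet+EGF libraries lay below the batch 1 controls. In 3 of 23 alternatives it was not called, with a lowest difference of 0.56. KRT6A, KRT16 and KRT17, keratins of wounded and hyperproliferative epidermis chosen likewise, differed by 0.53 (limma adjusted p = 0.00454), -0.19 (0.321) and -0.52 (0.0863). KRT6A shares sequence with its copies KRT6B and KRT6C. The same keratins differed by 1.44, 1.45 and 1.40 in Tet cells, all higher than control.

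Among genes of the basal layer and adhesion, 41 of 42 passed, of which 20 rose and 4 fell, against 16.0% and 16.2% of all genes, with a median of 0.37. Fewer rose when either Tet+EGF library was left out, as was so for all genes tested. LAMB3, a laminin chain of the basement membrane, was at 1232 and 1306 RPKM in Tet+EGF libraries, 266.0, 343.8 and 344.0 in Tet libraries, and 643.3, 421.8 and 440.7 in control libraries (1.29, SE 0.23, limma adjusted p = 0.00688). LAMA3, another laminin chain chosen after its values were seen, rose by 1.35. Both were highest with EGF and lower in Tet cells than in control cells. ITGB8, an integrin that activates latent TGF-beta, rose by 2.01. ITGA6, a chain of laminin-binding integrins, went against them: 73.4 and 70.6 RPKM in Tet+EGF libraries, 43.8, 50.7 and 48.1 in Tet libraries, and 150.9, 168.2 and 173.1 in control libraries (-1.06, limma adjusted p = 0.000239). BCAM, a laminin receptor, fell by 1.53, and the basal keratins KRT5 and KRT14 by 0.62 and 0.33.

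**Figure D4:**
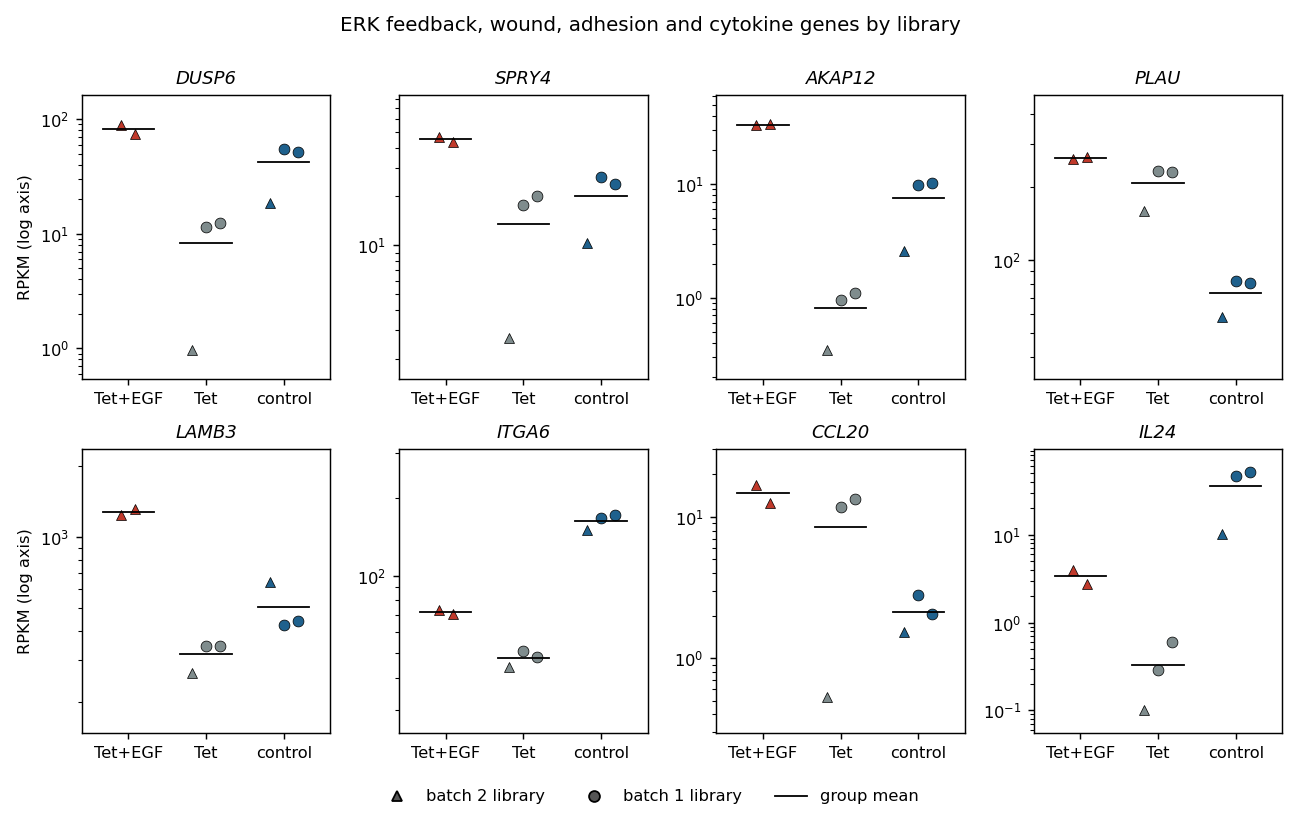
RPKM (log axis) of 8 genes of ERK feedback, wounding, adhesion and inflammation in Tet+EGF, Tet and control libraries, with triangles for batch 2, circles for batch 1 and a line at each group mean. DUSP6, AKAP12 and LAMB3 are highest in the Tet+EGF libraries and lowest in Tet libraries, SPRY4 is highest with EGF while Tet and control libraries overlap, PLAU and CCL20 of the Tet+EGF libraries lie above all controls, and ITGA6 and IL24 lie below the controls in each library with tetracycline.

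Differentiation genes gave about as many rises as falls against control. Of 51 early genes that passed, 9 rose and 7 fell, and of 35 of 69 late genes, 6 rose and 4 fell, against 16.0% and 16.2% of all genes. The median early gene was at 7.70 and 7.73 RPKM in Tet+EGF libraries, 16.6, 27.5 and 24.2 in Tet libraries, and 9.72, 7.02 and 7.36 in control libraries. The median late gene was at 3.53 and 2.96 RPKM in Tet+EGF libraries, 6.04, 8.86 and 9.85 in Tet libraries, and 3.96, 3.37 and 3.33 in control libraries. Tet libraries were the highest in both lists, and Tet+EGF libraries lay near or within the range of the controls. Median differences from control were 0.13 and 0.26 in Tet+EGF cells, against 0.98 and 0.85 in Tet cells. Against Tet, 28 early genes and 16 late genes were lower and 3 of each were higher, against 9.15% and 9.82% of all genes. The balance against control moved with single libraries. Without control 1, 26 early and 20 late genes rose, against 2741 of all 12567 genes tested. Without Tet 1, 19 and 12 fell, against 3633 of all genes. With all libraries 2013 of all genes rose and 2038 fell, so these counts moved in part with those of all genes.

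Some single genes did differ. CST6, for the protease inhibitor cystatin M/E of cornified skin, was at 33.1 and 34.7 RPKM in Tet+EGF libraries, 7.42, 12.8 and 13.8 in Tet libraries, and 6.52, 6.28 and 5.99 in control libraries (2.59, limma adjusted p = 0.000442). KRTDAP, a protein of differentiating layers, was at 1.21 and 2.20 RPKM in Tet+EGF libraries, 12.3, 38.5 and 29.7 in Tet libraries, and 15.4, 23.6 and 27.95 in control libraries (-2.65, limma adjusted p = 0.00103). CST6 was highest with EGF, and KRTDAP lowest. SBSN, for suprabasin, fell by 1.59, KRT4, a mucosal keratin, by 2.01, and PKP1, a desmosomal plaque protein, by 0.80. GJB2, for the gap junction protein connexin 26, was called higher by 1.8, but its 124.6 and 112.8 RPKM in Tet+EGF libraries were below the 127.9 and 135.3 in controls 2 and 3 and above the 29.1 in control 1.

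Of the late genes, TGM1, the transglutaminase that crosslinks the cornified envelope, fell by 1.69, with 1.31 and 1.05 RPKM in Tet+EGF libraries, 6.59, 17.8 and 17.7 in Tet libraries, and 6.44, 7.30 and 8.51 in control libraries. KLK5 and KLK8, proteases of shedding cells, fell by 0.76 and 0.65 and PPL, for periplakin, by 0.42. PADI3, a deiminase, CDSN, for corneodesmosin, SMPD1, a sphingomyelinase, and UGCG, which makes glucosylceramide, rose by 1.45, 1.44, 0.96 and 0.74. Like CXCL11, PADI3 passed the filter only through the Tet+EGF libraries. KRT13, chosen after its values were seen, was at 3.48 and 3.21 RPKM in Tet+EGF libraries, 33.7, 82.3 and 81.5 in Tet libraries, and 2.66, 2.41 and 3.15 in control libraries (0.69, limma adjusted p = 0.138). KRT1 and KRT10, the keratin pair of differentiating epidermis, differed by 0.56 and -0.17 and did not pass (limma adjusted p = 0.546 and 0.827).

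Amino acid and ATF4-target genes stayed lower than in control cells. Of 49 genes 47 passed, of which 29 fell and 0 rose by limma, against 16.2% and 16.0% of all genes. Below each control lay 22 of the 29, against 1762 of all 2038 genes called lower. The median member was at 30.5 and 41.2 RPKM in Tet+EGF libraries, 17.7, 22.4 and 21.7 in Tet libraries, and 72.7, 43.8 and 45.1 in control libraries. Its difference from control was -0.92 in Tet+EGF cells and -1.23 in Tet cells, and 21 members were higher in Tet+EGF than in Tet cells and 4 lower, against 9.82% and 9.15% of all genes. The count of falls was 15 without a batch term, against 1346 of all 12567 genes tested. It was also smaller when either Tet+EGF library was left out, as was that of all genes. The 2 Tet+EGF libraries differed more from each other in this median level than in that of any other list with 10 or more genes tested.

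ASNS, asparagine synthetase, was at 21.8 and 30.2 RPKM in Tet+EGF libraries, 7.30, 4.46 and 4.89 in Tet libraries, and 82.8, 58.3 and 62.2 in control libraries (-1.72, limma adjusted p = 0.00059). It was lowest in Tet libraries and between the other groups with EGF. PYCR1, of proline synthesis, fell by 1.41, SHMT2, the mitochondrial serine enzyme, by 1.54, and SLC7A5, an importer of large neutral amino acids, by 1.22. ATF4 itself, chosen after its values were seen, was at 128.8 and 154.6 RPKM in Tet+EGF libraries, 80.1, 85.5 and 94.2 in Tet libraries, and 155.9, 152.0 and 145.0 in control libraries (-0.07, limma adjusted p = 0.717). DDIT3 and TRIB3, stress targets of ATF4 chosen likewise, had 158.3 and 389.7 RPKM in control 1, far above every other library, and did not pass (-1.22 and -1.1, limma adjusted p = 0.255 and 0.276).

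Lists of growth and metabolism had medians between -0.30 and 0.38. Their counts moved by over 1.5 times when 1 library was left out, as did those of all genes tested. Counts in this paragraph stand against 16.0% of all genes higher and 16.2% lower. Of 43 genes of MYC targets and ribosome biogenesis, 12 fell and 3 rose, with a median of -0.30, and 4 to 29 fell with 1 library left out. GAR1, of the snoRNP that modifies ribosomal RNA, fell by 2.18, with 3.86 and 3.27 RPKM in Tet+EGF libraries, 2.95, 4.92 and 5.53 in Tet libraries, and 20.1, 24.9 and 22.6 in control libraries, and RRP1B, a nucleolar protein, fell by 1.62. MYC itself was at 101.4 and 93.3 RPKM in Tet+EGF libraries, 39.7, 202.4 and 208.0 in Tet libraries, and 69.2, 171.1 and 174.5 in control libraries. It was called higher (0.83, limma adjusted p = 0.045), while without a batch term it was -0.39. Among genes for proteins of the cytosolic ribosome, 21 of 79 fell and 0 rose by limma, with a median of -0.22, and 3 to 34 fell with 1 library left out. Of 75 respiratory chain genes, 16 rose (2 to 35 with 1 library left out) and 2 fell, with a median of 0.14, and NDUFS4, a subunit of complex I, fell by 1.52.

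In glycolysis and hypoxia, 6 of 38 genes rose (2 to 13 with 1 library left out) and 5 fell (3 to 12). ENO1, for enolase, was at 221.3 and 185.0 RPKM in Tet+EGF libraries, 205.0, 263.5 and 288.6 in Tet libraries, and 539.7, 1445 and 1365 in control libraries (-1.73, limma adjusted p = 0.0028). NDRG1, a hypoxia-responsive gene, fell by 2.10, whereas SLC16A3, the lactate exporter MCT4, rose by 1.38 and was lower in Tet than in control cells, at -0.76. TXNRD1, a thioredoxin reductase and NRF2 target, was at 6.09 and 6.30 RPKM in Tet+EGF libraries, 6.04, 5.68 and 4.40 in Tet libraries, and 29.8, 34.5 and 34.2 in control libraries (-2.33, limma adjusted p = 0.000242). The NRF2 list as a whole had 5 of 27 higher and 5 lower. Of 39 genes of cholesterol and fatty acid synthesis 8 rose (2 to 27 with 1 library left out) and 3 fell (1 to 16), with SREBF2, a regulator of sterol synthesis, 1.02 lower. Of 36 lysosome genes 16 rose (3 to 19) and 3 fell, with a median of 0.25. CD68, a lysosomal glycoprotein, rose by 0.98, and the proteases CTSL2 and TPP1 fell by 1.16 and 1.24. These shares stand against 16.0% and 16.2% of all genes.

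H19, an imprinted RNA with no protein product, was the third largest fall of the genes named by size. It was at 1.17 and 1.505 RPKM in Tet+EGF libraries, 56.5, 50.7 and 50.4 in Tet libraries, and 30.6, 17.9 and 20.1 in control libraries. Tet+EGF libraries lay far below both other groups, and Tet libraries above control. The difference was -3.92 from control (limma adjusted p = 6.24e-05) and -5.13 from Tet (limma adjusted p = 2.14e-05). MIR675 lies within H19, and its row cannot be told apart from H19 reads. IGFL1, an insulin growth factor-like protein, was at 2.03 and 1.75 RPKM in Tet+EGF libraries, 94.6, 195.3 and 202.8 in Tet libraries, and 14.6, 19.8 and 22.8 in control libraries (-2.48, limma adjusted p = 0.000219). TSC22D3, the glucocorticoid-induced leucine zipper, was called lower by 2.10, although its 55.5 and 68.4 RPKM in Tet+EGF libraries were above the 37.5 and 35.1 of controls 2 and 3 and below the 270.0 of control 1. The list named for growth factor withdrawal, which holds all 3, had 9 of 33 higher (4 to 14 with 1 library left out) and 7 lower (3 to 10), against 16.0% and 16.2% of all genes.

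PRSS22, a tryptase-like protease, was at 32.6 and 35.5 RPKM in Tet+EGF libraries, 70.2, 41.6 and 48.2 in Tet libraries, and 1.92, 1.18 and 1.68 in control libraries (3.74, limma adjusted p = 6.65e-05), so it was high in all libraries with tetracycline. DKK1, a secreted Wnt inhibitor, was at 72.6 and 49.7 RPKM in Tet+EGF libraries, 48.9, 120.0 and 111.0 in Tet libraries, and 2.77, 35.2 and 35.1 in control libraries (3.47, limma adjusted p = 0.00418), with no overlap but with control 1 far below the other controls. TGM2, tissue transglutaminase, and C15orf52 rose by 2.73 and 2.69.

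Metallothionein and zinc genes went both ways against control. Of 14 that passed, 5 rose (2 to 6 with 1 library left out) and 2 fell (1 to 4), against 16.0% and 16.2% of all genes, with a median of -0.02 and of 0.14 within batch 2. In Tet cells 9 of the 14 fell, against 29.9% of all genes, with a median of -1.56. MT2A, which binds zinc and copper, was at 6596 and 6636 RPKM in Tet+EGF libraries, 255.9, 383.3 and 413.6 in Tet libraries, and 3113, 6261 and 6463 in control libraries (0.96, limma adjusted p = 0.00151). MT1E was at 657.4 and 661.5 RPKM in Tet+EGF libraries, 133.0, 117.4 and 126.2 in Tet libraries, and 966.8, 883.3 and 944.9 in control libraries (-0.57, limma adjusted p = 0.00225). These genes are close copies of each other, so their reads may be split. Of 27 TGF-beta, BMP and Wnt genes, 9 rose (4 to 14 with 1 library left out) and 2 fell (1 to 3), against the same 16.0% and 16.2%. WNT7A, a Wnt ligand of epidermis, was at 66.9 and 64.9 RPKM in Tet+EGF libraries, 25.7, 23.4 and 23.0 in Tet libraries, and 12.8, 23.4 and 21.9 in control libraries (2.00, limma adjusted p = 0.00132). TGFB1, the cytokine, rose by 0.79 and its receptor gene TGFBR2 by 1.07, while TCF7L1, a repressor of Wnt targets, fell by 1.56.

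Of 39 p53 targets and CDK inhibitors 6 rose (3 to 21 with 1 library left out) and 3 fell (0 to 13), with a median of 0.08, led by CCNG1, for cyclin G1, which rose by 1.09. Of 8 aryl hydrocarbon receptor genes 3 rose (1 to 5 with 1 library left out) and 0 fell by limma. CYP1A1, its classic target, was at 13.04 and 16.1 RPKM in Tet+EGF libraries, 78.4, 120.3 and 110.0 in Tet libraries, and 6.97, 1.85 and 1.82 in control libraries (1.75, limma adjusted p = 0.0453). Its call held under 14 of 23 alternatives, with differences from 1.01 to 3.24, and was lost without any 1 of control 2, control 3, Tet 2, Tet 3, Tet+EGF 1 or Tet+EGF 2. Of 11 retinoid genes 3 rose and 2 fell. RDH10, which makes retinal, fell by 1.38 and ALDH1A3, which turns it into retinoic acid, rose by 2.13. Of 34 housekeeping genes 6 rose (0 to 15) and 6 fell (2 to 10), with a median of 0.05. All these stand against 16.0% and 16.2% of genes tested.

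**Figure D5:**
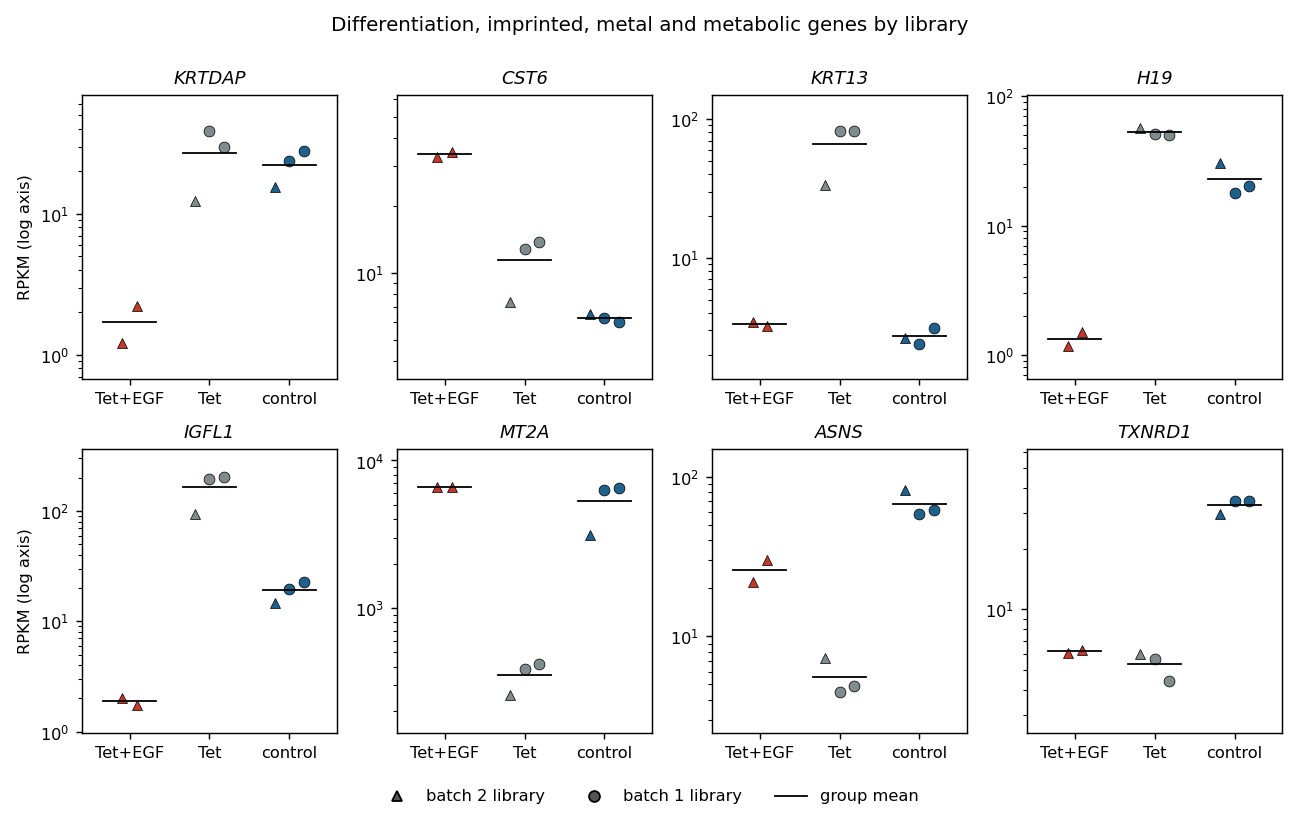
RPKM (log axis) of 8 further genes in Tet+EGF, Tet and control libraries, with triangles for batch 2, circles for batch 1 and a line at each group mean. KRTDAP, H19 and IGFL1 are lowest in the Tet+EGF libraries, CST6 is highest there, KRT13 and MT2A lie near controls with EGF but not without it, ASNS lies between the other groups, and TXNRD1 is low in all 5 libraries with tetracycline.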

How the data were processed

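The authors aligned reads with TopHat 1.3.3, per the submitters' processing notes, and deposited 1 table of RPKM with 3 decimals and 1 column per library. The sources used here give no counting tool, strand setting, genome build, annotation or read counts. Batches are those named in the sample descriptions. A gene was kept if 2 or more of the 8 libraries reached an RPKM of 1. Values entered as log2(RPKM + 0.5), and limma 3.58.1 (R 4.3.3) was run with a linear model of group plus batch over the 8 libraries and a mean-variance trend in eBayes. Tests are two-sided, p was adjusted by the Benjamini-Hochberg method for 12567 genes, and a gene was called at 0.05. Values within batch 2 come from a fit of 1 mean per group and batch. The fit was checked on simulated data.

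Members and gene lists were chosen with earlier results of these data known. Named by rule were FOXM1, the ERBB genes that passed and the 14 largest rises and falls whose mean RPKM reached 5. These rises and falls had to be called and to show no overlap with control. Per list, the rule added up to 4 genes by smallest p, called or not, and up to 4 called genes against its majority. Other named genes were chosen after their values were seen, also where a sentence does not repeat it. Promoters were matched by symbol for 9644 genes, and 3′ UTRs were searched for 11253. Scripts used Python 3.11.15, pandas 2.3.3, numpy 2.4.6 and matplotlib 3.10.9.

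Alternatives were pseudocounts of 0.1 and 1, no filter, a filter on mean RPKM at 5, leaving batch out of the model, fitting the 2 groups by themselves, batch 2 by itself, a replicate block, 3 other scalings, eBayes without trend or robust, a threshold of 0.01, a 2-fold minimum, and each library left out.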

Additional observations from a re-analysis of the deposited data

How the results depend on the processing

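Against 2013 genes higher and 2038 lower by limma, the counts were 3149 and 3872 with only Tet+EGF and control libraries and a batch term, 3594 and 4354 with batch 2 libraries alone, and 2947 and 3627 with 1 mean per group and batch. Without a batch term they were 1550 and 1346, at a threshold of 0.01 they were 919 and 975, and with a 2-fold minimum 495 and 621. Leaving out each library in turn gave 768 to 2949 higher and 847 to 3633 lower. The lowest came without Tet+EGF 1 (768 and 847) and Tet+EGF 2 (803 and 876), and the highest without Tet 1 (2949 and 3633), with 2741 higher without control 1. Group sizes and the share of the batch term differ between these fits, and other causes were not tested. No filter gave 1656 and 1567, and a mean RPKM of at least 5 gave 1492 and 1508.

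A replicate block, entered instead of batch, gave 1212 higher and 1083 lower. Deviations of Tet+EGF 1 and control 1 correlated at -0.31 and those of Tet+EGF 2 and control 2 at -0.263, and with 2 libraries in a group these values mirror each other, so the numbers were not taken to pair the samples. Under the block the sign turned for MYC (-0.0739), CDKN1C (0.10), BCL6 (0.0658) and SFN (-0.0659).

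Signs turned without a batch term for RGS2 (0.20), MYC (-0.39), DDB2 (0.0193), CDKN1C (0.28), P4HA2 (0.0707), BCL6 (0.30) and SFN (-0.24). EREG turned to -0.64 with only the 2 groups and batch, with batch 2 alone, within batch 2 and without Tet 1. Leaving out single libraries, of which control 1 gave the highest and Tet 1 the lowest value, took EREG from -0.64 to 2.14, TGFA from -0.76 to 0.53, NRG1 from -0.54 to 0.96, KRT10 from -0.91 to 1.31 and ETV4 from -0.40 to 0.48. The cause was not tested. Control 1 is the 1 control in the batch of both Tet+EGF libraries, and precision is limited by 2 libraries against 3 and by unknown read counts.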

Other observations

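Genes outside the lists' leading members, all chosen after their values were seen, gave further differences by limma. VIM, for the mesenchymal filament vimentin, was at 109.9 and 115.2 RPKM in Tet+EGF libraries, 14.5, 5.30 and 4.06 in Tet libraries, and 48.8, 50.1 and 53.8 in control libraries. All groups were apart, although the fitted difference of 0.65 from control did not pass (limma adjusted p = 0.256). Within batch 2 the difference was 1.20, and over the alternatives it ran from -0.43 to 1.20. FN1, for fibronectin, was at 1059 and 1111 RPKM in Tet+EGF libraries, 293.3, 491.0 and 493.3 in Tet libraries, and 927.2, 1691 and 1868 in control libraries (0.16, limma adjusted p = 0.211). ITGA2, a collagen receptor chain, rose by 1.47 and MMP9, a gelatinase, by 1.94.

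TNFRSF6B, a decoy receptor for FAS ligand, was at 52.6 and 52.6 RPKM in Tet+EGF libraries, 0.912, 0.913 and 1.05 in Tet libraries, and 19.4, 32.3 and 24.8 in control libraries (1.26, limma adjusted p = 0.00279). GPNMB, a lysosomal and melanosomal glycoprotein, was at 1.33 and 1.99 RPKM in Tet+EGF libraries, 19.7, 17.1 and 18.3 in Tet libraries, and 0.403, 0.218 and 0.229 in control libraries (1.3, limma adjusted p = 0.0022). TNFRSF6B was highest with EGF and GPNMB in the Tet libraries. CXCL14, a chemokine of epithelia, was at 0.074 and 0.048 RPKM in Tet+EGF libraries, 28.8, 78.1 and 96.3 in Tet libraries, and 0.317, 0.632 and 1.33 in control libraries. Its Tet+EGF libraries were below every control, and the fitted difference of -0.29 did not pass (limma adjusted p = 0.496).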
